A study of Mus musculus with 8 samples.

Results

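The B cell lineage was described in mouse kidney by 9 genes, Cd79a, Cd79b, Cd22, Ms4a1, Cr2, Pou2af1, Mzb1, Tnfrsf17 and Jchain. Every non-control probe of the array that carries one of these gene names, or the older name Igj for Jchain, was taken. This gave 12 of 55681 probes, and 9 of the 25127 genes tested. Cd79a, Cd22 and Cr2 had 2 probes each, and the other 6 genes had 1 each.

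Whole-kidney total RNA came from mice of the outbred CD-1 stock and was measured, after Cy3 labelling, on Agilent expression arrays with 1 colour. In the TAC group, mice received tacrolimus for 28 days at 1 mg/kg/day, and in the CTL group they received physiological serum instead. Each group had 4 arrays, the labels state neither age nor sex, and no genetic change is given for either group. The labels number the arrays as replicates without naming animals, so a p-value here reflects only how much these samples vary, which may be technical.

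B cells recognise antigen with a membrane immunoglobulin, which signals inside the cell through the paired chains CD79A and CD79B. Co-receptors such as CD22 and CR2 lower or raise that signal. After activation some B cells become plasma cells, which lose much of this surface machinery and turn to the assembly and secretion of antibody. A healthy kidney holds few B cells and plasma cells, and tacrolimus, a calcineurin inhibitor, is used against transplant rejection because it blocks the activation of T cells. In RNA of a whole organ, fewer cells of a type and less RNA per cell cannot be told apart.

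Levels below are on a log2 scale on which 0 is the 75th percentile of the array in question, and differences are TAC minus CTL on that scale. The share of spots well above background was 64.0% to 69.8%, 0 spots were saturated, and arrays correlated between 0.981 and 0.992 across genes. Kidney markers were present on every array, where the mean level of 8 tubule and podocyte genes was 4.05 to 4.27 on TAC arrays and 4.13 to 4.40 on CTL arrays. All arrays lay on 1 slide, with TAC arrays in row 2 and CTL arrays in row 1, so slide row and treatment cannot be told apart. The number of arrays, 4 per group, limits the precision of every value.

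None of the 9 genes differed between TAC and CTL kidneys after adjustment over all genes tested. In limma's test with Benjamini-Hochberg adjustment, 0 of 9 had an adjusted p under 0.05, where 57 of 25127 genes tested, 0.227%, did. The adjusted p-values of the 9 genes lay between 0.221 and 0.992. One gene, Cd22, had an unadjusted p under 0.05 and was lower in TAC kidneys, a count of 1 of 9 beside 15.5% of all genes in either direction and 8.42% lower. The differences were above 0 for 3 genes and below 0 for 6, with a median of -0.023, beside -0.054 over all genes tested. The 95% intervals reached from 0.425-fold to 2.45-fold over the 9 genes, both bounds being those of Ms4a1, the most variable of them. The size of change that could be detected was not computed for these 9 genes. All 9 genes and 11 of the 12 probes passed the filter on dim probes, which asked that at least 4 of 8 arrays show a signal well above background.

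**Figure D1:**
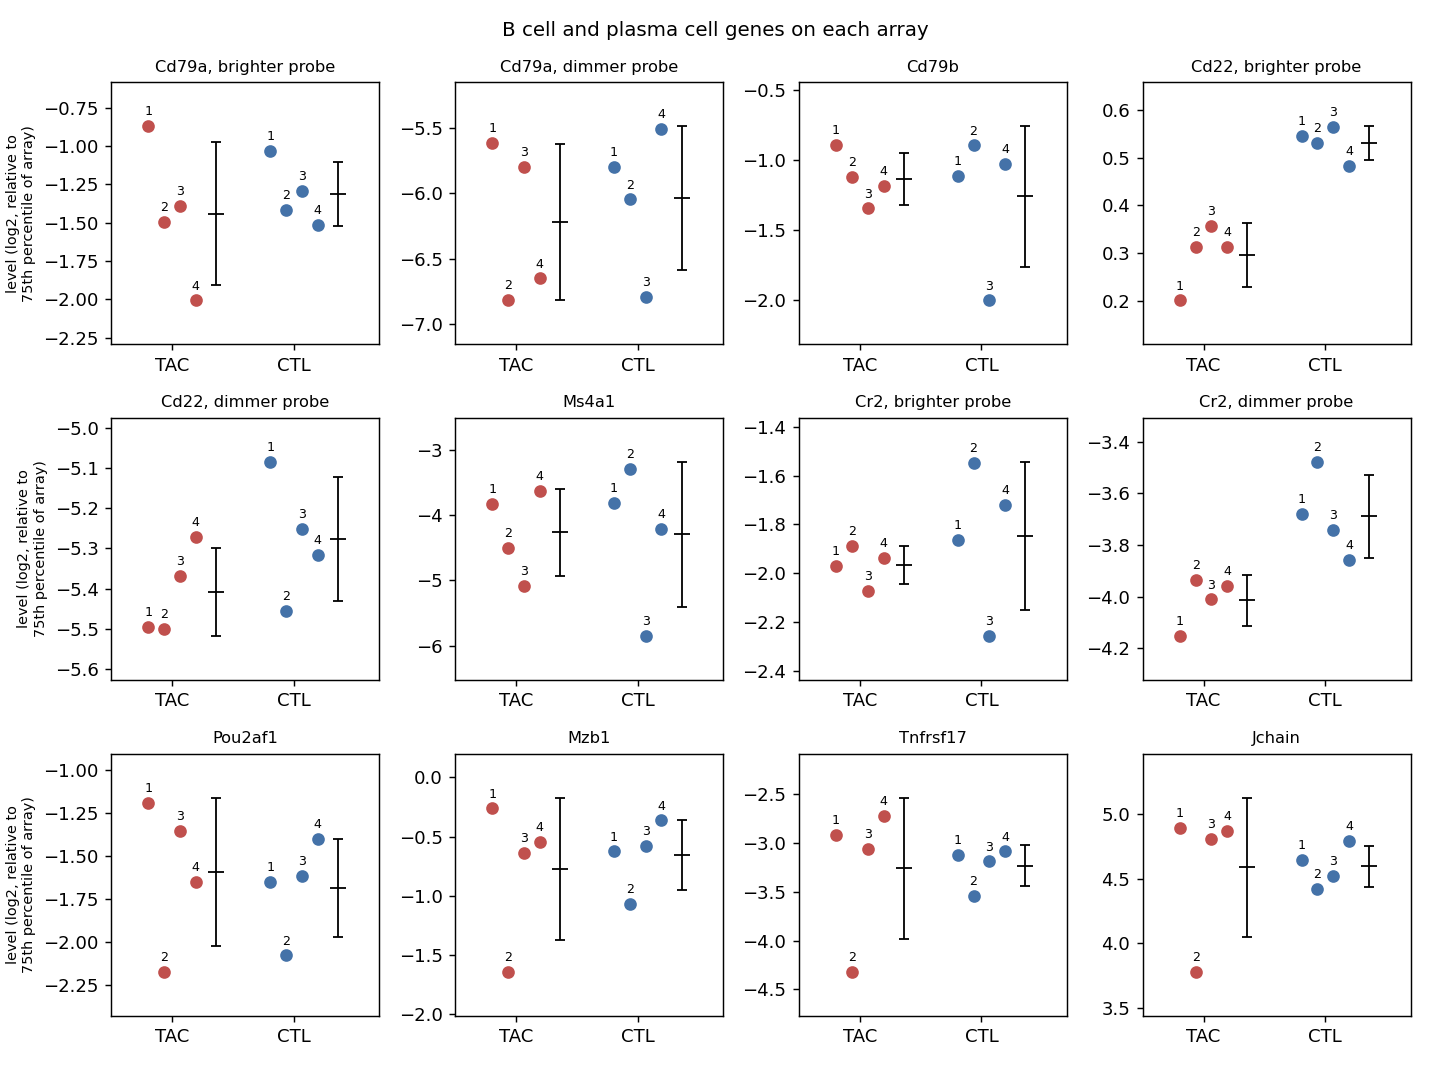
Level of each of the 12 probes on each array (vertical axes, log2 relative to the 75th percentile of the array, with a scale of their own per panel), with TAC arrays in red on the left, CTL arrays in blue on the right, numbered by replicate, and bars for the mean ± SD of 4 arrays. The groups separate for the brighter Cd22 probe and the dimmer Cr2 probe, and TAC replicate 2 lies lowest for Pou2af1, Mzb1, Tnfrsf17 and Jchain.

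Cd79a and Cd79b encode the signalling chains of the B cell receptor. The Cd79a probe that represents the gene (mm9, chr7:25686823-25686882, plus strand) gave levels of -0.87, -1.50, -1.39 and -2.01 on TAC arrays 1 to 4 and -1.03, -1.42, -1.29 and -1.51 on CTL arrays 1 to 4. The TAC arrays held both the highest and the lowest value, and the groups overlapped. Means were -1.44 ± 0.47 in TAC and -1.31 ± 0.21 in CTL (SD, n = 4 each), a difference of -0.13 ± 0.23 (SE), with a 95% interval of -0.65 to 0.39 and a limma adjusted p of 0.816. The other Cd79a probe, 2208 bases away and annotated to a span of 258 bases (mm9, chr7:25684357-25684614, plus strand), was well above background on 1 TAC array and 2 CTL arrays and was not tested. Cd79b (mm9, chr11:106172780-106172839, minus strand) gave -0.89, -1.12, -1.34 and -1.18 on TAC arrays and -1.11, -0.90, -2.00 and -1.02 on CTL arrays. CTL replicate 3 was the lowest of the 8 arrays, and all TAC values lay within the range of the CTL values except TAC replicate 1, the highest. The difference for Cd79b was 0.12 ± 0.24 (95% interval -0.42 to 0.67, adjusted p = 0.831).

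Cd22 encodes a sialic acid-binding co-receptor that dampens B cell receptor signals, and it was the member with the lowest p. Its brighter probe gave 0.20, 0.31, 0.36 and 0.31 on TAC arrays and 0.55, 0.53, 0.57 and 0.48 on CTL arrays. Every TAC value lay below every CTL value, with means of 0.30 ± 0.07 in TAC and 0.53 ± 0.04 in CTL (SD, n = 4 each). The difference was -0.24 ± 0.08 (95% interval -0.41 to -0.06), or 0.850-fold, with a limma p of 0.0145 that became 0.221 after adjustment. An exact two-sided permutation test, with 70 possible assignments, gave 0.0286, the smallest p that 4 against 4 arrays allow. Among all genes tested, 10.1% had groups that did not overlap and 5.75% did so with TAC lower, and Cd22 was the only one of the 9 genes in that state. The dimmer Cd22 probe, 13804 bases away, gave -5.49, -5.50, -5.37 and -5.27 on TAC arrays and -5.08, -5.45, -5.25 and -5.32 on CTL arrays. These groups overlapped, and the difference of -0.13 ± 0.11 had an unadjusted p of 0.253 in the fit on probes. This probe was well above background on every array but dim, since the lowest such levels were -7.29 to -5.84 across arrays. The 2 probes are shown because they differ in sequence make-up as well as in result: the brighter one holds the repeat AACCAACCAACC, given in capitals in the first 30 bases of each probe, 5′ to 3′.
Cd22, brighter probe, mm9 chr7:31651249-31651308, minus strand: gaaaaatgaaaAACCAACCAACCaaccaaa
Cd22, dimmer probe, mm9 chr7:31665113-31665172, minus strand: agggcctgctgtgttttttcatctacttta
This repeat is held by 7 of the 55681 probes, 0.0126%. The other 6 passed the filter and had differences between -0.30 and 0.05, a range that includes the value of Cd22. Whether the repeat has a part in the Cd22 signal was not tested.

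Ms4a1 encodes CD20, a membrane protein of B cells that plasma cells lack. Its levels (mm9, chr19:11325367-11325426, minus strand) were -3.83, -4.51, -5.09 and -3.62 on TAC arrays and -3.80, -3.29, -5.85 and -4.22 on CTL arrays. Ms4a1 had the widest spread of the 9 genes, with SDs of 0.67 in TAC and 1.11 in CTL, and was well above background on 4 TAC and 3 CTL arrays. The difference was 0.029 ± 0.55 with a 95% interval of -1.23 to 1.29 (adjusted p = 0.987), or 0.425-fold to 2.45-fold. Its sign was turned under several other processing choices given in the closing section.

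Cr2 encodes complement receptor CD21, which lowers the threshold of B cell activation and is also carried by follicular dendritic cells. Its brighter probe gave -1.97, -1.89, -2.07 and -1.94 on TAC arrays and -1.86, -1.55, -2.26 and -1.72 on CTL arrays. The TAC arrays lay close together inside the range of the CTL arrays, which CTL replicate 3 opened downwards, and the difference was -0.12 ± 0.15 (95% interval -0.46 to 0.22, adjusted p = 0.722). Without CTL replicate 3 the difference was -0.26 with an unadjusted p of 0.048. The dimmer Cr2 probe, 2460 bases away, gave -4.15, -3.93, -4.01 and -3.96 on TAC arrays and -3.68, -3.48, -3.74 and -3.86 on CTL arrays. Here every TAC value lay below every CTL value, and the difference was -0.32 ± 0.11 (95% interval -0.57 to -0.08). Its limma p was 0.0156 and, adjusted over 36493 probes, 0.252, with an exact permutation p of 0.0286. Over all probes 14.3% had an unadjusted p under 0.05, 7.88% with TAC lower, and 5.4% had groups apart with TAC lower. Both Cr2 probes had differences below 0, and the first 30 bases of each are shown to identify the stretches that gave these values.
Cr2, brighter probe, mm9 chr1:196965532-196965591, minus strand: tggcctacagattgttcttgtgatatttca
Cr2, dimmer probe, mm9 chr1:196963012-196963071, minus strand: catgacaataatggactagaactctgaact
Which transcript form of Cr2 or Cd22 each probe detects was not examined, as no exon annotation of this build was used here.

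Pou2af1 and Mzb1 are tied to the making of antibody. Pou2af1 encodes a coactivator of octamer-binding factors at immunoglobulin promoters. Its levels (mm9, chr9:51048121-51048180, plus strand) were -1.19, -2.18, -1.36 and -1.65 on TAC arrays and -1.65, -2.08, -1.62 and -1.40 on CTL arrays. TAC replicate 2 and CTL replicate 2 were the lowest arrays, and the difference was 0.09 ± 0.23 (95% interval -0.43 to 0.62, adjusted p = 0.872). Mzb1, a chaperone of the endoplasmic reticulum that helps antibody assembly and secretion, was measured on 10 spots of 1 probe per array. It gave -0.26, -1.64, -0.64 and -0.55 on TAC arrays and -0.62, -1.07, -0.58 and -0.36 on CTL arrays. The same 2 arrays were lowest, TAC replicate 1 was highest, and the difference was -0.11 ± 0.29 (95% interval -0.78 to 0.55, adjusted p = 0.878).

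Tnfrsf17 encodes BCMA, the receptor through which long-lived plasma cells receive survival signals from APRIL. Its levels (mm9, chr16:11320045-11320104, plus strand) were -2.92, -4.32, -3.07 and -2.73 on TAC arrays and -3.12, -3.54, -3.19 and -3.09 on CTL arrays. TAC replicate 2 was the lowest array, while the other 3 TAC arrays lay above all CTL arrays, and the difference was -0.023 ± 0.33 (95% interval -0.77 to 0.72, adjusted p = 0.982). Jchain encodes the joining chain that links IgA and IgM into the polymers carried across epithelia. It gave 4.89, 3.78, 4.81 and 4.87 on TAC arrays and 4.64, 4.42, 4.52 and 4.79 on CTL arrays (mm9, chr5:88949919-88949978, minus strand). TAC replicate 2 was again the lowest of the 8 arrays and the other 3 TAC arrays were the highest. Means were 4.59 ± 0.54 in TAC and 4.59 ± 0.16 in CTL (SD, n = 4 each), and the difference was -0.0082 ± 0.25 (95% interval -0.58 to 0.56, adjusted p = 0.992). Leaving out TAC replicate 2 turned both signs, to 0.33 for Tnfrsf17 (unadjusted p = 0.0557) and 0.26 for Jchain (unadjusted p = 0.0531 by limma), and neither then had a p under 0.05.

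**Figure D2:**
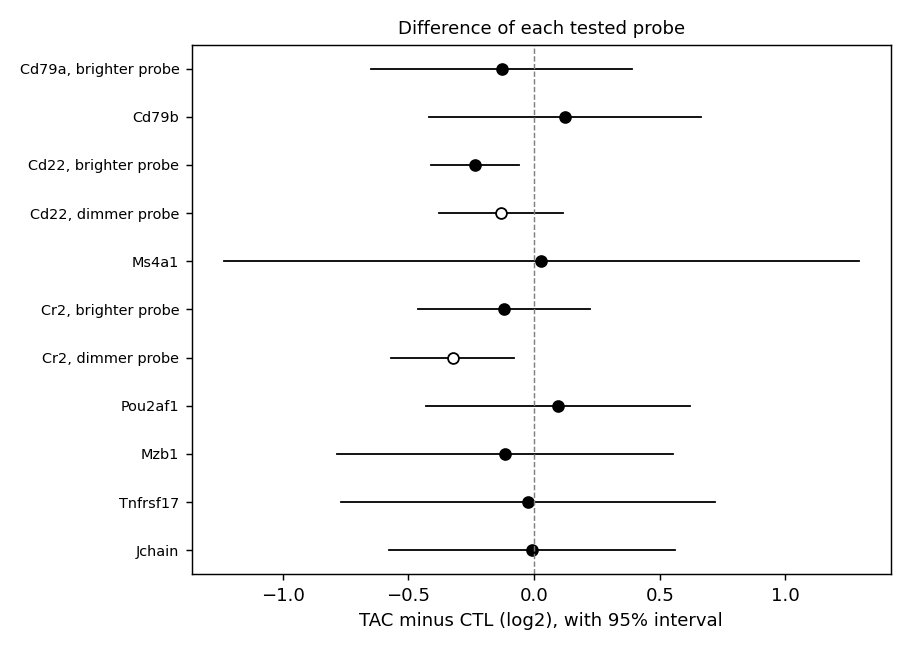
Difference of each of the 11 tested probes (horizontal axis, TAC minus CTL, log2) with its 95% interval from the limma fit, where filled points stand for the probe that represents a gene and open points for a further probe. The interval lies below 0 for the brighter Cd22 probe (-0.41 to -0.06) and the dimmer Cr2 probe (-0.57 to -0.08), and it spans 0 for the other probes.

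Differences between arrays of 1 group were larger than the difference between the groups for most of the 9 genes, and 2 patterns recurred. Pou2af1 and the genes Mzb1, Tnfrsf17 and Jchain, linked to antibody-secreting cells, all had TAC replicate 2 as the lowest of 8 arrays. CTL replicate 2 was the second lowest for each of them. Cd79b, Ms4a1 and Cr2, genes of the B cell surface, all had CTL replicate 3 as the lowest. For Ms4a1 that value, -5.85, lay below -5.84, the lowest level well above background on that array. TAC replicate 1 was the highest array for 5 of the 9 genes. Cd79a and Cd22 followed neither pattern, although both encode B cell surface proteins, with TAC replicate 4 lowest for Cd79a and TAC replicate 1 lowest for Cd22. The mean level of the 15 other plasma cell genes listed further on did not follow the first pattern. That mean was -1.10 on TAC replicate 2 and -1.04 on CTL replicate 2, and lowest on CTL replicate 4, at -1.28. A mean can hide single genes, and Derl3 was lowest on TAC replicate 2, at -1.06. Eaf2 was lowest on TAC replicate 4, and Slamf7 and Tnfrsf13b were lowest on CTL replicate 3.

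**Figure D3:**
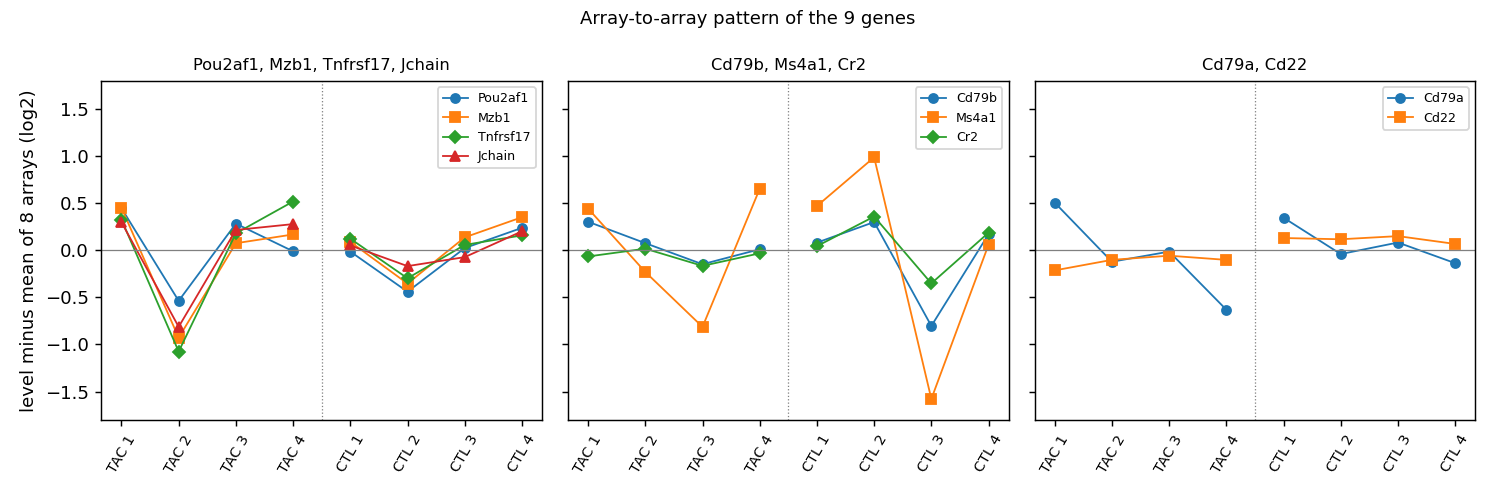
Level of each of the 9 genes on each array minus its mean over the 8 arrays (vertical axis, log2), with TAC arrays left and CTL arrays right of the dotted line, and lines that only join the points of a gene. The left panel shows the shared low values on TAC replicate 2 and CTL replicate 2, and the middle panel those on CTL replicate 3.

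The 2 sets were formed after the values were seen, so no test was made of the sets themselves. The 36 pairs of genes were each tested over the 8 arrays, with exact permutation p-values adjusted over the 36. Tnfrsf17 and Jchain had the closest relation, with Pearson's r of 0.976 (exact p = 7.4e-05, adjusted 0.00268) and Spearman's rho of 0.976 (exact p = 0.000397, adjusted 0.0143). It stood at 0.988 within the TAC arrays, at 0.836 within the CTL arrays and at 0.772 without the 2 arrays farthest from the median, TAC replicate 2 and CTL replicate 2. Of the 36 pairs, 6 had an adjusted p under 0.05 by Pearson's r and 1 by Spearman's rho.

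Over the 6 pairs among Pou2af1, Mzb1, Tnfrsf17 and Jchain, r lay between 0.795 and 0.976, and between 0.807 and 0.976 on deviations from the group means. Without the 2 arrays farthest from the median it lay between 0.0553 and 0.772, so the weakest of these relations rests on those arrays. Without TAC replicate 2 alone it lay between 0.649 and 0.896, and within the 4 CTL arrays between 0.836 and 0.9999. Over the 3 pairs among Cd79b, Ms4a1 and Cr2, r lay between 0.803 and 0.877, and without CTL replicate 3 and TAC replicate 3 between 0.356 and 0.450, while within the 4 CTL arrays it lay between 0.938 and 0.966. Leaving out the farthest arrays narrows the range of levels, which lowers r by itself. Between the sets, the 12 pairs had r from -0.403 to 0.142, and none had an adjusted p under 0.05. Each array carries all 9 genes, so the pairs share the array's RNA and scale.

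**Figure D4:**
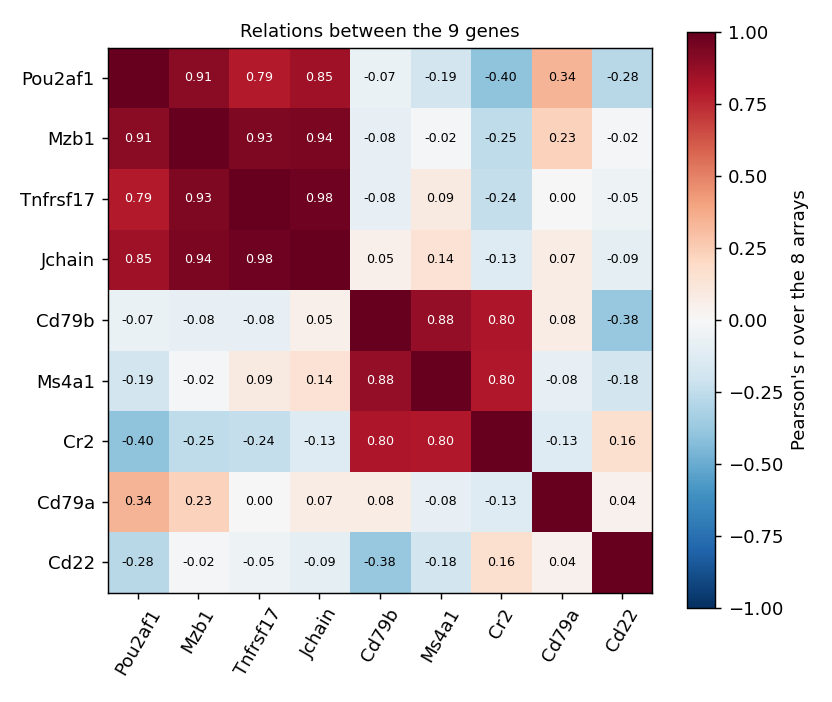
Pearson's r of each pair of the 9 genes over the 8 arrays (colour scale and printed values, from -1 in blue to 1 in red). High values form 2 blocks, Pou2af1, Mzb1, Tnfrsf17 and Jchain (0.795 to 0.976) and Cd79b, Ms4a1 and Cr2 (0.803 to 0.877).

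Promoters of 3 of the 4 genes of the first block are printed because those genes moved together across arrays. Of the 9 genes, 6 were matched to the RefSeq promoter sequences of GRCm38.p6 used here, and the 250 bases before the start site are given, 5′ to 3′ on the strand of the gene, with motifs in capitals.
Pou2af1, GRCm38.p6 chr9:51213440-51213689, plus strand: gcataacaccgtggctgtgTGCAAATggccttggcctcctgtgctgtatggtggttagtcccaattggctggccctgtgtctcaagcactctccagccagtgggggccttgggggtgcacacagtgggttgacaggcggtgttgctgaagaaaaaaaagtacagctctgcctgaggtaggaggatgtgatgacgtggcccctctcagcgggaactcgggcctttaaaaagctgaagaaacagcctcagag
Tnfrsf17, GRCm38.p6 chr16:11313559-11313808, plus strand: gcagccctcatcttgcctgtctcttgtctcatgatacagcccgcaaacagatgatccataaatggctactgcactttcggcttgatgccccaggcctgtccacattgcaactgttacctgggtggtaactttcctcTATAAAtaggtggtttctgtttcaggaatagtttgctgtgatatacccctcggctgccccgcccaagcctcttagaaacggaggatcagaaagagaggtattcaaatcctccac
Jchain, GRCm38.p6 chr5:88527898-88528147, minus strand: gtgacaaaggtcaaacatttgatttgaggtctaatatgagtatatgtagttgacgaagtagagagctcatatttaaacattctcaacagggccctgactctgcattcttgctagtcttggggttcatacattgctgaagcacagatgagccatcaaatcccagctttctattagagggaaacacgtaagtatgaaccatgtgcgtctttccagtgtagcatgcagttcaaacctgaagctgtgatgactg
The motifs were chosen after these promoters had been read, and both strands were searched. The octamer ATGCAAAT, the site of the factors that Pou2af1 binds, was in 0 of the 6 promoters and in 1.6% of 32851 promoters. Its shorter form TGCAAAT, which the octamer contains, starts at -231 in Pou2af1 and was in 3.56% of all promoters. Tnfrsf17 holds TATAAA, the core of a TATA box, at -114, and this motif was in 12.4% of all promoters. Jchain held none of the 3 motifs in this window. A match here describes the letters in the window only.

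Antibody transcripts themselves were covered thinly, since none of the 12 constant region genes looked for, such as Igha and Igkc, was found under its current name among the probe annotations. Probes annotated to variable segments may also detect constant region transcripts, which was not examined. Of 7 genes annotated as variable segments or under older immunoglobulin names, 0 were called and 0 had an unadjusted p under 0.05, and the median difference was -0.14. Iglv1 had the largest difference of the 7, -0.81 ± 0.53 (limma adjusted p = 0.473). It gave -0.48, -0.35, -0.56 and -0.96 on TAC arrays and -0.85, 1.43, -0.79 and 1.09 on CTL arrays. The groups overlapped, and CTL replicates 2 and 4 were the highest arrays. Igh-VJ558, the name of a large family of heavy chain variable segments, was given to 4 probes, 3 of which lie close together (mm9, chr12:114496985 to 114498407, minus strand) and away from the fourth (chr12:116610609-116610667), and its brightest gave 8.16, 7.49, 8.36 and 8.04 on TAC arrays and 7.99, 8.04, 8.22 and 8.37 on CTL arrays. TAC replicate 2 was the lowest of the 8 arrays for that probe and for 2 further ones, at 6.36 and 2.50. The differences of the 4 probes were -0.14, -0.24, -0.18 and -0.54, with overlapping groups throughout. Segments of 1 family resemble each other in sequence, and the probes may lie outside such segments, so which immunoglobulin transcripts gave these levels is not settled here.

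Further B cell and plasma cell genes were taken from lists assembled with earlier results of these data known. Of 24 other B cell genes 20 were tested. None was called, 5 were higher in TAC kidneys at an unadjusted p under 0.05 and 1 was lower, where 7.04% and 8.42% of all genes were, and the median difference was 0.19. That median was 0.30 without CTL replicate 4 and 0.45 over single probes. Spib, a transcription factor of B cells and of plasmacytoid dendritic cells, gave -2.16, -1.79, -2.00 and -2.77 on TAC arrays and -3.37, -3.08, -4.77 and -3.60 on CTL arrays. All TAC values lay above all CTL values, with a difference of 1.52 ± 0.37 (adjusted p = 0.121). Btk, a kinase of B cell receptor signalling that myeloid cells also use, gave -2.42, -2.39, -2.80 and -2.87 on TAC arrays and -3.51, -2.89, -3.92 and -3.53 on CTL arrays. Its groups were apart by a small margin, with a difference of 0.84 ± 0.22 (adjusted p = 0.144). The adaptor Blnk had a difference of 0.68 ± 0.17 (adjusted p = 0.136) and the scaffold protein Bank1 one of 1.24 ± 0.46 (adjusted p = 0.261). Bank1 was well above background on 4 TAC and 3 CTL arrays, and stood at -6.18 on CTL replicate 3.

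The remaining 2 with an unadjusted p under 0.05 were Cd72, at 0.58, and Fcrl5, at -0.31, both named after their values were seen. The 95% interval included 0 for Ms4a1, Cd79a and Cd79b, and lay above 0 for Spib, Btk, Blnk and Bank1. Spib, Btk, Blnk and Bank1 were named for the lowest p-values in their list, so such intervals follow from that choice. No test compared them with Ms4a1, Cd79a and Cd79b. Pax5, Blk, Fcrl1 and Cd180 were too dim to be tested.

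Among 15 other plasma cell genes the median difference was -0.020 and 0 were called. At an unadjusted p under 0.05, 7.04% of all genes were higher in TAC kidneys and 8.42% lower. Of the 15 genes, 2 were higher by this measure and 1 was lower. The 2 were Tnfrsf13b, the receptor TACI, with a difference of 0.51 ± 0.15 (adjusted p = 0.183), and Slamf7, a surface receptor of plasma cells and other leukocytes, with 0.78 ± 0.28 (adjusted p = 0.257). Eaf2 was the lower one, at -0.72 ± 0.29 (adjusted p = 0.293). Derl3, a component of the degradation of misfolded proteins, had a difference of -0.31 ± 0.18 (adjusted p = 0.416). The genes of secretion and of plasma cell identity named Xbp1, Prdm1 and Sdc1 were tested too, and none of them had an unadjusted p under 0.05.

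Ligands that attract or sustain B cells had a median difference of 0.45 over 8 tested genes, with 0 called. Of the 8, 2 were higher at an unadjusted p under 0.05, where 7.04% of all genes were. Tnfsf13b, which encodes the survival factor BAFF, gave -1.94, -1.97, -2.49 and -2.36 on TAC arrays and -2.61, -2.78, -2.85 and -2.84 on CTL arrays. All TAC values were above all CTL values, with a difference of 0.58 ± 0.14 (adjusted p = 0.126). Cxcl13, a chemokine that draws B cells into follicles, gave -4.88, -3.96, -5.44 and -4.71 on TAC arrays and -5.88, -6.41, -8.16 and -5.42 on CTL arrays. It was well above background on 4 TAC but only 2 CTL arrays, so the size of its difference, 1.72 ± 0.57 (adjusted p = 0.226), depends on CTL values near background. Ccl19 and Cxcl12 had differences of 0.23 and 0.31, with overlapping groups. Among 3 genes of lymph node stroma and vessels, which include Cxcl13 and Ccl19, Madcam1 had a difference of 0.54 ± 0.19 (adjusted p = 0.251).

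Of 6 germinal centre genes 4 were tested, with a median difference of 0.27, and of 0.47 without CTL replicate 4. Gcsam, well above background on 4 TAC and 2 CTL arrays, had a difference of 1.54 ± 0.38 (adjusted p = 0.124), whose size likewise depends on CTL values near background, and S1pr2 had one of 0.65 ± 0.17 (adjusted p = 0.133). Bcl6 and Mef2b had differences of -0.20 and -0.11, with overlapping groups. When a signal well above background was asked for on all 8 arrays, the median of this list was -0.11, since Gcsam was left out. Receptors and transporters of immunoglobulin had a median of 0.27 over 7 genes, of which Fcgr3, a receptor for IgG, had a difference of 0.51 ± 0.17 (adjusted p = 0.230). Fcgr4, Fcamr and Fcgr2b had differences of 0.81, 0.27 and 0.11, and their groups overlapped.

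Markers of other cell types were set beside the 9 genes. The mean level of the 9 genes was -1.45 to -0.76 on TAC arrays and -1.30 to -0.89 on CTL arrays, so the groups overlapped. None of the genes in the 5 lists that follow was called. Of all genes, 7.04% reached an unadjusted p under 0.05 with TAC higher and 8.42% with TAC lower. Of 9 macrophage markers, at an unadjusted p under 0.05, 7 had higher levels in TAC kidneys and 1, Itgam, a lower level, with a median difference of 1.32 and mean levels of 1.09 to 1.90 on TAC arrays and 0.17 to 0.78 on CTL arrays. Of 7 genes of leukocytes in general 5 were higher by the same measure, with a median of 0.65 and mean levels of -0.25 to 0.39 on TAC arrays and -1.02 to -0.36 on CTL arrays. Of 12 T cell markers 4 were higher, with a median of 0.61 and mean levels of -2.51 to -1.97 on TAC arrays and -3.04 to -2.26 on CTL arrays. The median of the T cell markers was 0.30 with normexp background correction and 0.34 from the deposited values. Of 7 plasmacytoid dendritic cell markers 2 were higher, with a median of -0.07 and mean levels of 1.42 to 1.81 on TAC arrays and 1.38 to 1.73 on CTL arrays. The 2 were Irf8 and Bst2, with differences of 0.87 and 0.74, and the other 5 had no unadjusted p under 0.05. The highest levels of this list were those of Siglech (means 7.11 in TAC and 7.08 in CTL) and Pacsin1 (4.44 and 4.68). How far these probes reflect such cells was not tested. The part of these cell types in the levels of Spib, Btk and Blnk was not tested.

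Adipocyte markers differed most between arrays, with mean levels of 5 genes from -3.17 to 0.52 on TAC arrays and from -6.80 to -3.09 on CTL arrays, and TAC replicate 4 and CTL replicate 2 were the highest of their groups. Adipoq, Cidec and Plin1, 3 of the 5, were well above background on 1, 2 and 0 CTL arrays, so the size of the difference depends on CTL values near background, and the median of 3.42 was 1.68 with normexp and 2.12 from the deposited values. The difference of Cd22 was -0.24 without those 2 arrays (unadjusted p = 0.0425), as it was with them. CTL replicate 3, lowest for Cd79b, Ms4a1 and Cr2, also had the lowest mean level of the other B cell genes, -3.24 beside -2.58 to -2.44 on the other CTL arrays and -2.55 to -2.16 on TAC arrays. It was likewise lowest for the ligands, at -3.53, and for the germinal centre genes, at -2.34. These means include genes below -5.84, the lowest level well above background on that array. Among them were Cxcr5 (-8.06) of the other B cell genes, Cxcl13 (-8.16) and Gcsam (-6.12). The same array was the lowest of the 8 for genes of leukocytes in general (-1.02), T cell markers (-3.04), macrophage markers (0.168) and plasmacytoid dendritic cell markers (1.38), and it had the lowest share of spots well above background, 64.0%. Its low values were thus not particular to B cell genes, and the part of that share in them was not tested.

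**Figure D5:**
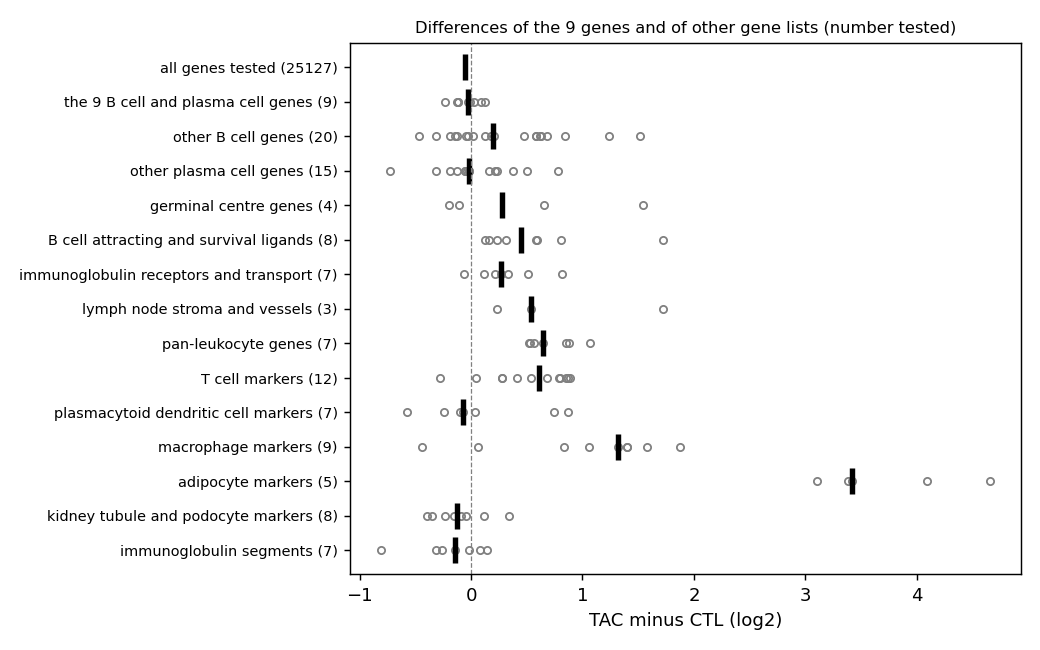
Difference of each tested gene (open circles, horizontal axis, TAC minus CTL, log2) in the 9 B cell and plasma cell genes and in the other lists, with a black bar for the median and the number of tested genes in brackets. The 9 genes lie between -0.24 and 0.12 around a median of -0.023, while the median of macrophage markers is 1.32 and the adipocyte markers, 3 of 5 of them not well above background on 2 or more CTL arrays, lie farthest to the right.

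By a search over 15744 tested genes with a symbol, the array pattern most like the mean pattern of the 9 genes was that of Corin, with r of 0.992 over the 8 arrays. Olfr1247, Cldn19, Ralyl, Col25a1 and Mep1b followed, with r of 0.948, 0.931, 0.930, 0.926 and 0.921. Corin gave -2.13, -4.52, -3.34 and -2.98 on TAC arrays and -2.65, -3.18, -4.05 and -2.63 on CTL arrays, lowest on TAC replicate 2 and next on CTL replicate 3. Corin is a membrane protease that activates natriuretic peptide, Cldn19 a tight junction protein of the thick ascending limb and Mep1b a brush border protease. None of the 3 is a lymphocyte marker, and the likeness is a description of 8 arrays. The mean pattern mixes the 2 sets of genes described above. It was lowest on TAC replicate 2 and next lowest on CTL replicate 3, an order that none of the 9 genes had. On TAC replicate 2, Ralyl and Col25a1 stood at -7.30 and -6.83, below -6.00, the lowest level well above background on that array.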

How the data were processed

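Kidney RNA of 4 TAC and 4 CTL samples was measured on 1 array each. Per the file headers, the authors read spots with Agilent Feature Extraction 10.7.3.1, which gives a raw intensity and a processed intensity with background subtracted and no scaling between arrays. The authors' deposited value table holds log2 values, which equal the quantile-normalized raw median intensity to within 5e-09, with column medians of 6.30 to 6.32. Per the submitters' processing notes limma was used; with which settings is not given in the sources used here.

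Levels were computed as log2 of the processed intensity minus the array's 75th percentile (674 to 1061 intensity units) over 59305 non-control spots. The 3671 control features and outlier spots (147 to 194 per array) were left out, the spots of a probe were averaged, and 32 of 55681 probes with no value on some array were not tested. Probes well above background on at least 4 of 8 arrays were tested, and where a gene had several, the one of highest mean signal stood for it. RefSeq accessions named 28026 probes and renamed 1651, and probe positions come from the array's annotation, which uses mm9.

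The comparison used lmFit and eBayes of limma 3.58.1 (R 4.3.3), two-sided, with Benjamini-Hochberg adjustment over 25127 genes, and was tested on simulated data first. Single values were also compared by exact permutation tests. The 9 genes and the lists were chosen with earlier results of these data known. All 9 genes are named with every probe, and in each B cell list up to 4 tested genes with the lowest p. The immunoglobulin variable segments are an exception, since only Iglv1, Igh-V3660 and Igh-VJ558 are named in the text. The 6 genes most like the 9 in pattern were named by Pearson's r.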

Additional observations from a re-analysis of the deposited data

Results flagged for a closer look

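In 136 groups of 4 arrays, each the TAC or the CTL arrays of a gene or probe named or listed above, the gap between an extreme array and its nearest neighbour was divided by the whole range and set against Dixon's critical value at the 95% level. Chance alone passes this in about 1 of 20 groups, and 6 of the 136 passed. For Jchain, TAC replicate 2 stood at 3.78, below the other 3 TAC arrays at 4.81 to 4.89. For Fcgr2b, an inhibitory receptor for IgG, CTL replicate 2 stood at 0.98, above the other CTL arrays at 0.86 to 0.88. For Pacsin1, TAC replicate 4 stood at 4.06, below the others at 4.53 to 4.60. For Igh-V3660, a heavy chain variable segment, TAC replicate 4 stood at -6.20, below the others at -5.56 to -5.46. For the adipocyte gene Plin1, TAC replicate 4 stood at -1.44, above the others at -5.74 to -5.14. For the adipocyte gene Cidec, CTL replicate 2 stood at -3.04, above the others at -6.32 to -6.08.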

How the results depend on the processing

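Under all 21 alternatives tried 0 of the 9 genes were called, while the count over all genes, 57, lay between 7 and 309 and differed by over 1.5 times in 16 of them. It was 286 with normexp, 181 from the deposited table, 309 with array weights, 221 with an intensity trend, 151 with the filter on all 8 arrays, 32 with none, 37 over probes and 103 with a replicate block. It was 8 without CTL 2 and TAC 4, 11 without TAC 2 and CTL 3, and 7 to 56 without single arrays: 7 without CTL 2, 13 without CTL 3 or CTL 4, and 18, 22 and 33 without TAC 1, 2 and 3. Of the 9 genes, 1 had an unadjusted p under 0.05. That count was 0 with the mean of a gene's probes, 2 with each probe on its own and 1 to 2 when single arrays were left out, with 2 (Cd22 and Cr2) without CTL 3. It was 0 without TAC 2 and CTL 3 together. Leaving out pairs of arrays was chosen after seeing the data.

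Cd22 stayed below 0 under all 21 (-0.29 to -0.18), as did Cr2 (-0.28 to -0.021). The other 7 genes changed sign somewhere, without an unadjusted p under 0.05. Ms4a1 was -0.039 with quantile normalization, -0.023 with median normalization, -0.021 with normexp, -0.14 from the deposited table and -0.095 with array weights. Jchain was 0.066 with quantile normalization, 0.0018 with normexp and 0.082 from the deposited table, Tnfrsf17 was 0.026 with normexp and 0.048 from the deposited table, and Cd79a was 0.022 with array weights. Without CTL 2 and TAC 4, Cd79a was 0.026 and Pou2af1 -0.018. Without TAC 2 and CTL 3, Cd79b was -0.13, Ms4a1 -0.41, Mzb1 0.20, Tnfrsf17 0.35 and Jchain 0.24. Leaving out single arrays gave -0.32 to 0.061 for Cd79a, -0.12 to 0.24 for Cd79b, -0.49 to 0.36 for Ms4a1, -0.040 to 0.29 for Pou2af1, -0.28 to 0.18 for Mzb1, -0.20 to 0.33 for Tnfrsf17, -0.11 to 0.26 for Jchain and -0.13 to 0.12 for the median of the 9. The cause was not tested.

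The replicate block left 0 genes called and 1 at an unadjusted p under 0.05 (Cd22, adjusted p = 0.260 by limma), with the median at -0.023. Deviations of same-numbered arrays correlated at 0.156, 0.0207, 0.143 and 0.0552 (replicates 1 to 4), which did not meet the rule for treating the numbers as pairs, and whether same-numbered arrays share more than a number is not known. Of the other lists, medians ranged over the 21 alternatives from 0.12 to 0.45 for other B cell genes, -0.11 to 0.47 for germinal centre genes, 0.21 to 0.53 for ligands, 0.30 to 0.79 for T cell markers, 1.02 to 1.63 for macrophage markers and 1.68 to 4.66 for adipocyte markers. The filter on all 8 arrays left Ms4a1 out. Dim probes limit Ms4a1, the second Cd79a probe and the dimmer Cd22 probe.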
